A study of Xenopus laevis with 64 samples.

Results

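The gene described here is hmgn3.L, the L-subgenome copy of hmgn3 in Xenopus laevis. It was chosen by its levels in hindlimb after inhibitor exposure, so those values are given as a description with no test. The array carried 812 cDNA spots in 406 neighbouring pairs, of which 237 pairs had a gene name, covering 230 gene symbols. hmgn3.L was 1 gene of those 230 and was represented by 1 pair of spots, under the older symbol Trip7 in the platform annotation. No pair was named for hmgn3.S, the copy on the other subgenome, and whether the hmgn3.L cDNA also captured hmgn3.S transcript was not tested.

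HMGN proteins are small nonhistone proteins that bind nucleosomes and loosen the packing of chromatin. Human HMGN3 was first isolated as TRIP7, a protein that interacts with the thyroid hormone receptor when hormone is present. Thyroid hormone drives amphibian metamorphosis, in which the hindlimb grows and the tail is resorbed, and PTU and MMI (inhibitors of thyroid hormone synthesis) and PER (perchlorate, which blocks iodide uptake) slow it.

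Tadpoles at NF stage 54 were exposed continuously, and amplified RNA of single animals was measured with a P32 label on 64 arrays, 38 of hindlimb and 26 of tail. The arrays fall into 20 groups in 7 sets, a set being one tissue, time and exposure experiment with its own controls. Hindlimb was sampled at 24 h with T3 (1.92 nM, n = 4), T4 (10 nM, n = 4), PTU (20 mg/L, n = 3), MMI (100 mg/L, n = 3) or PER (4 mg/L, n = 3), and at 96 h with the same 3 inhibitors (n = 3 each). Tail was sampled at 48 h with the same 5 agents at the same doses and numbers of animals. Each of the 7 sets had 3 control arrays, which for T3 and T4 were kept in LSW, the control medium named in the labels; the labels do not say how the inhibitor controls were kept. Dose, time and tissue differ between agents and sets, so T3 and T4, and the inhibitors, are set side by side and not compared with each other. Animals of a group came from few tanks, and which of them shared a tank is not known, so p-values cover only the spread between these animals.

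Signal is given as the mean of both spots divided by the array's noise SD, which was estimated from the negative values on that array. A pair was called above background when its mean exceeded 2 noise SD. Levels are normalised log2 intensities, scaled within a tissue. The arrays were faint: between 22 and 93 of the 406 pairs (median 48.5) were above background on an array, and 19.9% to 50.6% of spots were below 0. The marker lists were thinly covered, with hbd.S for blood, des.1.S for muscle, col2a1.L for cartilage and pitx1.L for hindlimb patterning. pitx1.L was above background on 1 hindlimb array and 1 tail array and col2a1.L on 2 of each tissue, so the tissue labels could not be checked with the limb marker, and no epidermal, nervous or notochord marker had a named pair. des.1.S, which encodes the muscle filament protein desmin, was higher in tail than in hindlimb among the hormone-set controls (log2 difference 2.54, adjusted p = 0.00214, limma). It was above background on 3 of 3 tail controls of the T3 set and 2 of 3 of the T4 set. In hindlimb this was 0 of 3 in each set. The pair thus entered the test through the tail alone, and its difference is taken against hindlimb background. Since each array holds RNA from a whole tissue, fewer cells of a type and less RNA per cell cannot be told apart.

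hmgn3.L was above background on 29 of 61 arrays on which it was measured. In hindlimb this was 27 of 36 arrays, with a median signal of 6.75 noise SD (range -0.428 to 23.2), whereas in tail it was 2 of 25 arrays, with a median of 0.771 noise SD and a maximum of 8.78. Its rank among the pairs of its own array followed the same order, with a median percentile of 94.1 in hindlimb and 75.8 in tail. Of the hindlimb arrays with a signal, 7 at 24 h and 10 at 96 h were in the inhibitor sets, used in choosing the gene. In the hormone sets, not so used, the counts were 10 of 13 in hindlimb and 2 of 14 in tail. Over all pairs, a median of 44.5 were above background on a hindlimb array and 54.5 on a tail array. Both tail arrays with a signal came from untreated controls, 1 of the T3 set and 1 of the T4 set. Within hindlimb the arrays with a signal numbered 5 of 11 controls, 7 of 8 hormone-treated arrays and 15 of 17 inhibitor-treated arrays. Over all pairs, the median number above background on an array was 40, 46 and 44.5 in these classes. At 96 h all 9 of 9 treated arrays carried a signal.

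**Figure D1:**
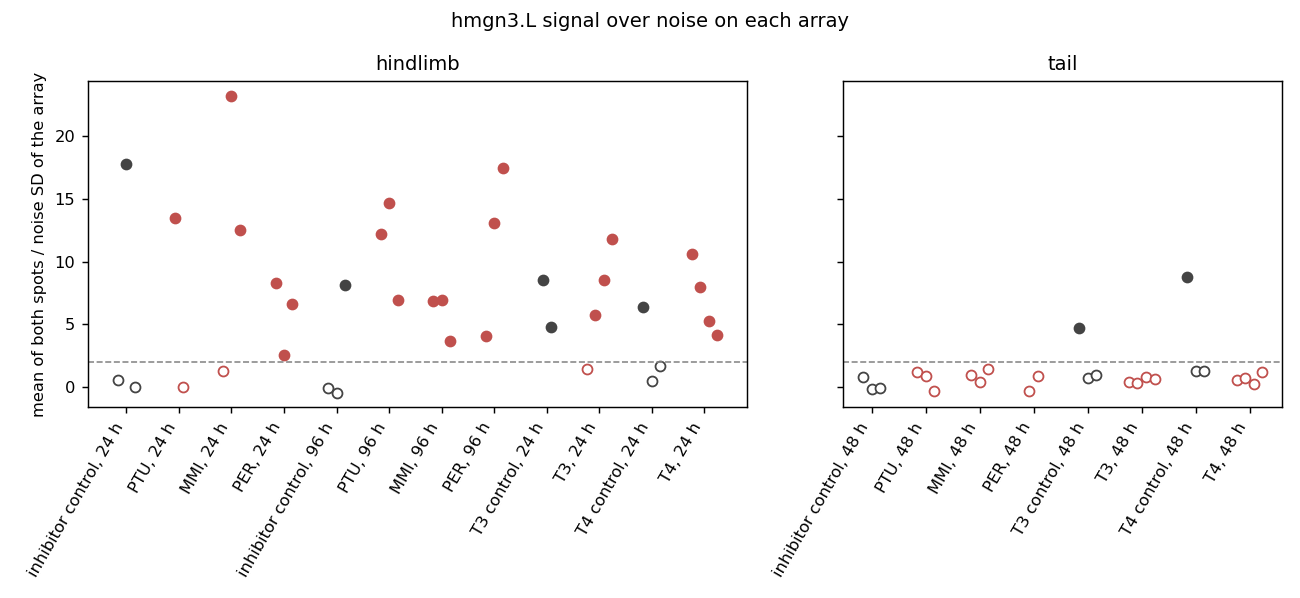
Signal of hmgn3.L over noise on each array, in noise SD, by group and tissue; black or grey symbols are controls, red symbols are treated animals, and open symbols are arrays not above background. Hindlimb arrays reach 23.2 noise SD, and 2 tail arrays, both controls, exceed 2 noise SD.

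Duplicate spots gave similar values where there was signal. Their intensities correlated across 59 arrays with r = 0.948, with r = 0.947 over 35 hindlimb arrays and r = 0.721 over 24 tail arrays; the points share each array's brightness, and no p is given. On the 28 arrays above background with both spots measured, the larger spot exceeded the smaller by a median factor of 1.24, and by more than 2-fold on 7 arrays, with a maximum of 4.10. Both spots were exactly 0 on 2 arrays, control 3 and PTU animal 3 at 24 h in the inhibitor set; a median of 39 spots per array was at 0.

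At 96 h in hindlimb 2 of 3 untreated controls lay at background, and the 9 treated animals all carried signal. Control 1 gave intensities of 0 and -151, and control 2 gave -839 and -812. Control 3 gave 10555 and 13170. So 1 of the 3 controls carried hmgn3.L at a bright level and the other 2 lay at background, with signals of -0.0901, -0.428 and 8.13 noise SD. The noise SD of these arrays was 835, 1928 and 1459. On the treated arrays it was 688 to 996 with PTU, 1637 to 1893 with MMI and 816 to 1828 with PER. Over all pairs, 22 to 39 were above background on a control array. With PTU this was 56 to 69, with PER 39 to 56 and with MMI 23 to 31. The part of array detection in the hmgn3.L counts was not tested.

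The PTU animals gave intensities of 9091 and 7690, 8802 and 12120, and 5033 and 8808. The MMI animals gave 7073 and 15526, 12238 and 14171, and 6157 with its second spot blank. The PER animals gave 5366 and 1310, 25042 and 22675, and 18454 and 21971. Every treated animal was above background, at 3.64 to 17.4 noise SD and a mean of both spots from 3338 to 23859, and control 3 lay within their range on the intensity scale. Set against the detection limits of the controls, of the 9 treated arrays, 9 exceeded the limit of control 1 (1670), 8 that of control 2 (3856) and 9 that of control 3 (2918). In rank within the array, controls lay at percentiles 40.4, 25.1 and 94.9, and treated arrays at 94.4 to 96.5.

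**Figure D2:**
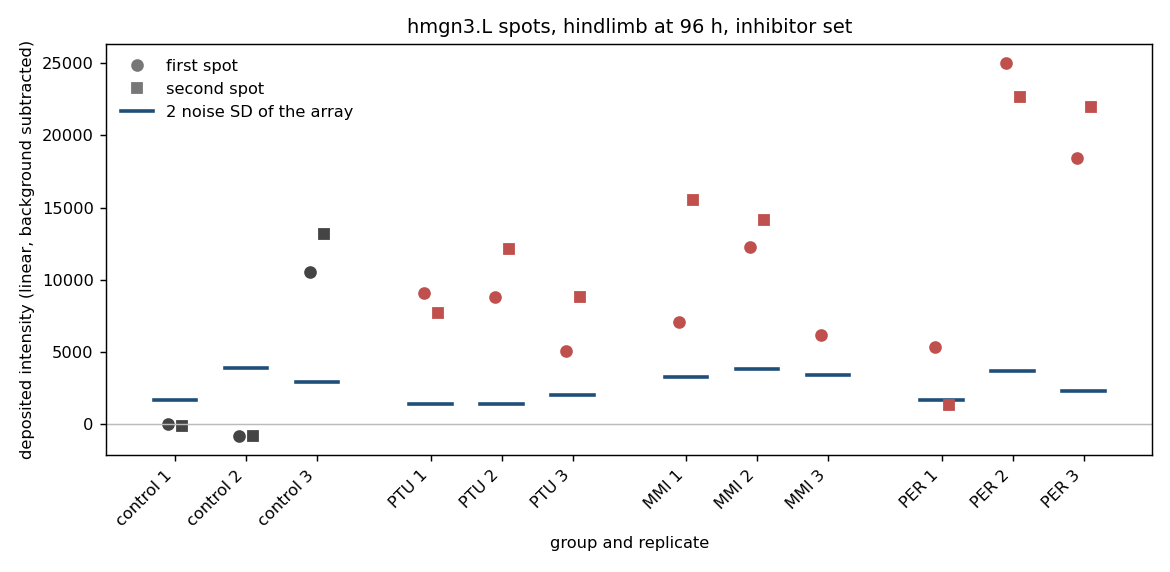
Deposited intensities of both hmgn3.L spots on the 12 hindlimb arrays at 96 h, by control or treated animal. Controls 1 and 2 lie at or below 0, while control 3 (10555 and 13170) lies among the 9 treated animals.

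On the log2 scale the controls were at 9.92, 9.65 and 12.75, a mean of 10.77 ± 1.72 (SD, n = 3). PTU animals were at 12.90 ± 0.43, MMI animals at 12.92 ± 0.10 and PER animals at 12.92 ± 0.69 (SD, n = 3 each). The differences from the controls were 2.13, 2.15 and 2.15, or 4.38-, 4.43- and 4.43-fold, against medians of 0.21, 0.03 and 0.22 over the 47, 29 and 35 pairs tested. These differences were used in choosing the gene and have no test, and the 3 comparisons share their controls. The MMI animals lay above all controls by a narrow margin (lowest 12.82 against 12.75), which was so for 10.3% of pairs in that comparison, and the deposited intensities overlapped. The PTU and PER groups overlapped control 3. Leaving out control 3 raised the 3 differences to 3.12, 3.14 and 3.14, and leaving out control 2 lowered them to 1.57, 1.58 and 1.58. With an SD of 1.72, hmgn3.L had the second widest spread of 62 pairs among these controls, where the median SD was 0.59.

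Some other pairs also had a signal on control 3 alone among the 96 h controls. Of 35 pairs above background on control 3, 10 were above background on neither control 1 nor control 2. Controls 1 and 2 had 39 and 22 pairs above background. The matching counts for each of them alone are not given here, so whether 10 is unusual is not known. Besides hmgn3.L the 10 were tpm4.S, slc13a2.S, pabpc1.S, myf5.L, chrna1.L, odc1.L, des.1.S and 2 unnamed pairs, a set named after its values were seen. Of these, tpm4.S encodes a tropomyosin, myf5.L a myogenic regulator, chrna1.L a muscle acetylcholine receptor subunit and des.1.S desmin. Of the 9 treated animals, hmgn3.L was above background in 9, tpm4.S in 7, pabpc1.S and myf5.L in 6 each, odc1.L and des.1.S in 5 each, chrna1.L in 3 and slc13a2.S in 0. Desmin, the 1 muscle marker of 12 with a named pair, spanned 9.54 to 12.13 in controls, 11.62 to 12.19 with PTU, 10.06 to 11.49 with PER and 9.50 to 12.01 with MMI. In the MMI animals des.1.S was above background on 0 of 3 arrays and hmgn3.L on 3 of 3. With PTU des.1.S was above background on 3 of 3, at levels that span the highest MMI level. The noise SD was 1637 to 1893 with MMI and 688 to 996 with PTU, so 0 of 3 does not show desmin to be absent. Unlike des.1.S, the muscle-related pair tpm4.S was above background on both measured MMI arrays, at 12.90 and 13.51. Its means differed from the controls by 2.74 with MMI, 2.23 with PTU and 0.82 with PER. Blood marker hbd.S spanned 10.96 to 12.61 in these controls and 10.94 to 13.50 over the 9 treated animals. The part of tissue composition in the hmgn3.L difference was not tested.

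At 24 h in the inhibitor set the pattern was less even. Controls had signals of 0.565, 17.8 and 0 noise SD, and levels of 10.41, 12.87 and 10.03. With PTU 1 array was blank and the others had 13.5 and 0 noise SD. The MMI animals had 1.32, 23.2 and 12.5, and the PER animals 8.32, 2.60 and 6.60. Again 1 control of 3 carried a bright signal, and the range of each treated group overlapped the range of the controls. That control, at 12.87, lay above both measured PTU levels (12.51 and 9.95). Mean levels were 11.11 ± 1.54 in controls (SD, n = 3), 11.23 ± 1.81 with PTU (n = 2), 12.66 ± 1.43 with MMI and 12.16 ± 1.07 with PER (n = 3 each). The differences of 0.12, 1.55 and 1.05 are descriptive for the same reason as above, and single arrays moved them. PTU gave -1.16 without PTU animal 2 and 1.41 without PTU animal 3, while MMI and PER gave 2.44 and 1.93 without control 2. The control SD ranked 4 of 56 pairs, whose median SD was 0.44. Controls at 96 h and 24 h had means that differed by -0.33, less than either SD; this was -1.33 without the 96 h control 3 and 0.55 without the 24 h control 2.

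**Figure D3:**
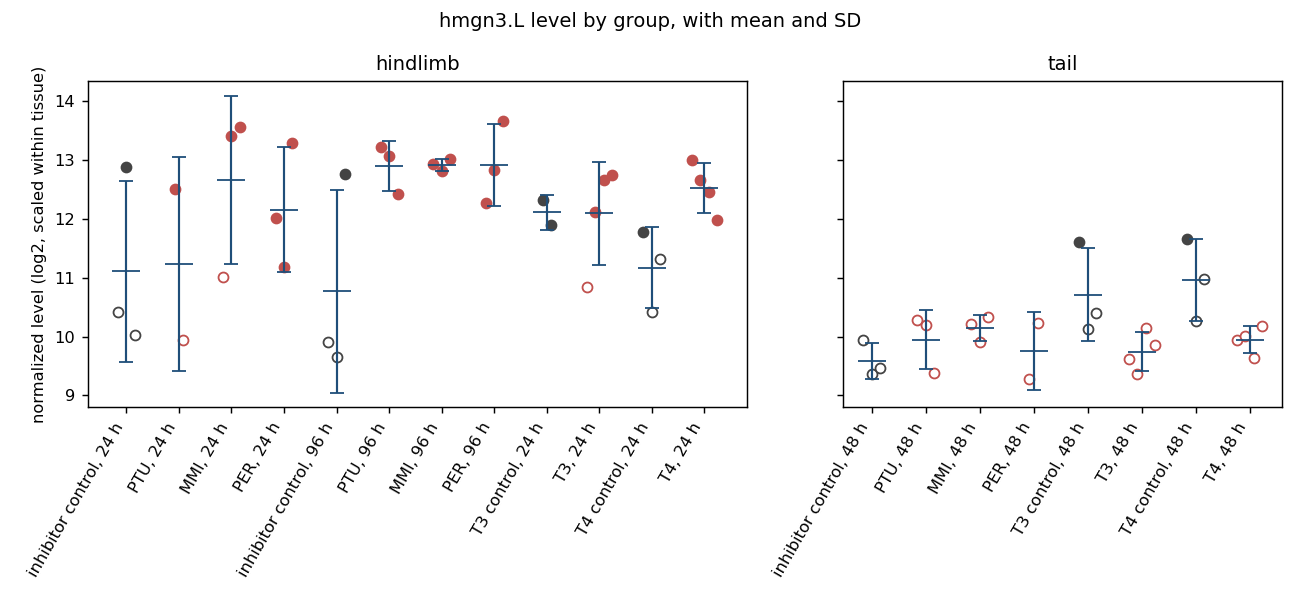
Normalised log2 level of hmgn3.L on each array by group, with the group mean and SD; controls are black or grey, treated animals red, and open symbols are arrays not above background. The 96 h treated groups have means of 12.90 to 12.92 and the tail groups have means between 9.59 and 10.96. Levels were scaled within each tissue, so hindlimb and tail values are not on a common scale.

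In hindlimb at 24 h the hmgn3.L mean was higher with T4, but the difference did not pass the test. The 4 animals given 10 nM T4 were at 13.00, 12.65, 12.46 and 11.98, and the 3 matched controls were at 11.77, 10.42 and 11.31. All 4 T4 animals had signal above background (10.6, 8.00, 5.28 and 4.18 noise SD), against 1 of 3 controls (6.41, 0.473 and 1.68). The groups did not overlap on the log2 scale, which was so in this direction for 6.82% of the pairs tested, but the deposited intensities overlapped (2371 in T4 animal 4, 2432 in control 1). The difference was 1.36 (SE 0.75, 95% CI -0.19 to 2.90), or 2.56-fold, and 4 of 4 animals exceeded the control mean. This SE pools the spread within all hindlimb groups, among them the inhibitor groups used in choosing the gene. The SD was 0.43 with T4 and 0.69 in the matched controls. The difference had an unadjusted p = 0.0827 and an adjusted p = 0.388 (limma). With only the compared groups fitted the adjusted p was 0.154 (limma), which also did not pass. In the main fit 0% of 44 pairs passed at an adjusted p under 0.05 and 6 had an unadjusted p under 0.05. The pair entered this test through the T4 group, where it is bright. With all pairs kept the adjusted p was 0.785 (limma). The median change over these pairs was -0.16, and hmgn3.L ranked 4 of 44 by change. The T4 arrays had a higher noise SD than their controls (567 to 747 against 380 to 505). hbd.S, which encodes a haemoglobin chain, was at 10.93 to 11.45 with T4 and 11.61 to 12.69 in the controls. Its difference of -0.99 was not called. The share of pairs whose groups do not overlap downwards is not given here, so whether this is unusual is not known. The part of blood content in the hmgn3.L values was not tested.

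With 1.92 nM T3 for 24 h, hindlimb levels were 10.84, 12.12, 12.66 and 12.75, and the 2 measured controls were at 12.32 and 11.90, the pair being blank on the remaining control array. The groups overlapped, and 3 of 4 T3 animals were above background (1.47, 5.79, 8.52 and 11.8 noise SD), as were both controls (8.56 and 4.79). The difference was -0.01 (SE 0.85, 95% CI -1.76 to 1.74, adjusted p = 0.996, limma), with 0% of 53 pairs called and 0 with an unadjusted p under 0.05. An interval of this width does not show that T3 left the gene unaltered. Its width also pools the spread of all hindlimb groups, those of the inhibitor sets included.

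In tail the gene was close to background, and fewer than 3 arrays of any comparison were above it. The tail comparisons were therefore not tested under the filter. With T3 the levels were 9.62, 9.37, 10.14 and 9.86, against 11.60, 10.14 and 10.40 in the controls. With T4 they were 9.95, 10.01, 9.63 and 10.18, against 11.66, 10.26 and 10.97. Neither hormone group held an array above background, and control 1 of each set was bright (4.69 and 8.78 noise SD). The means differed by -0.97 with T3 and by -1.02 with T4, and 0 of 4 treated animals exceeded their control mean in either comparison. Without control 1 the differences were -0.52 and -0.67. With all pairs kept, whatever their brightness, neither passed (adjusted p = 0.643 and 0.626, limma). Those fits compare values mostly at background, so they cannot decide whether T3 or T4 altered the gene in tail. The T4 groups did not overlap, in both log2 and deposited values; this held downwards for 3.45% of the 58 pairs tested. The inhibitor controls were at 9.59 ± 0.31 (SD, n = 3) and the inhibitor groups at 9.95 ± 0.50 with PTU, 10.15 ± 0.22 with MMI and 9.76 ± 0.67 with PER (n = 2), and 0 of 11 arrays in that set were above background. With MMI 3 of 3 animals exceeded the control mean, by 0.56 on average, and the deposited intensities did not overlap (265 to 1083 against -50.0 to 208), as in 35.3% of the 51 pairs tested in this direction; the log2 levels overlapped.

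Ordering the group means by tissue gave, in hindlimb from high to low, MMI, PER and PTU at 96 h, then MMI at 24 h, T4, PER at 24 h, the T3 control, T3, PTU at 24 h, the T4 control and the inhibitor controls at 24 h and 96 h. In tail the order was the T4 control, the T3 control, MMI, PTU, T4, PER, T3 and the inhibitor control. Of 11 neighbouring steps in hindlimb and 7 in tail, 0 exceeded the pooled SD. Sorting makes neighbouring steps small, so this does not show that the groups are alike. The order crosses agents, times and sets and is a description alone.

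The tissues were compared among the T3- and T4-set controls, whose arrays were not used in choosing the gene; time differs with tissue here (48 h in tail, 24 h in hindlimb). hmgn3.L was at 10.92 ± 0.60 in tail (SD, n = 6) and 11.25 ± 0.72 in hindlimb (n = 5). It was above background on 2 of 6 tail arrays and 3 of 5 hindlimb arrays. Many of these values are thus at background, and a small difference does not show the tissues to be alike. The fitted difference, with set as a term, was -0.36 (SE 0.39, 95% CI -1.21 to 0.50, adjusted p = 0.468, limma), with 4 of 6 tail animals below the hindlimb mean. Within the T3 set it was -1.02 and within the T4 set 0.18. Of 63 pairs, 47.6% passed the test, 30.2% being lower in tail.

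Among hormone-treated animals hmgn3.L was above background in hindlimb on 7 of 8 arrays and in tail on 0 of 8. The comparisons below, in which the hormone-set arrays of both tissues were normalised together, were added after the values had been seen. The pair entered them only through the hindlimb arrays, where it is bright, and the tail values are at background, so the sizes are given as lower bounds and the p-values also with all pairs kept. With T3 the tails were at 9.77, 9.53, 10.28 and 10.01 and the hindlimbs at 10.57, 11.90, 12.39 and 12.48, so the groups did not overlap, as in 33.8% of the pairs tested in this direction. On these arrays and with this processing the hindlimb group mean was at least 2.97-fold higher. That mean takes T3 hindlimb 1 at its level of 10.57, though this array was not above background (1.47 noise SD). The bound ran from 1.99 to 3.15 over the other scalings, backgrounds and offsets. The fitted difference was -1.94 (SE 0.40, 95% CI -2.76 to -1.11). It had an adjusted p = 0.000249 among 65 pairs and an adjusted p = 0.000927 with all pairs kept (limma). Of the 65 pairs, 56.9% were called, 32.3% being lower in tail. With T4 the tails were at 10.09, 10.16, 9.79 and 10.32 and the hindlimbs at 12.70, 12.39, 12.21 and 11.73, again without overlap, as in 36.2% of pairs. On these arrays and with this processing the hindlimb group mean was at least 3.60-fold higher. The bound ran from 2.66 to 4.11 over the same alternatives. The fitted difference was -2.17 (SE 0.40, 95% CI -2.99 to -1.34). It had an adjusted p = 7.67e-05 among 58 pairs and an adjusted p = 0.000221 with all pairs kept (limma). Of the 58 pairs, 58.6% were called, 31% being lower in tail. The bounds take each tail array's dimmest signal above background, or the pair's own value where higher, in place of the tail level. They allow for the tail background and not for the spread between animals, so they are not minimum values beyond these arrays. With T3 the bound also does not allow for the hindlimb array at background, so it is not strict.

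The mean differences with T4 had opposite signs in the tissues, and the test of their difference, also added after the values had been seen, did not pass. They were -1.01 in tail, where 0 of 4 T4 arrays and 1 of 3 controls were above background, and 1.32 in hindlimb. The fitted difference was -2.33 (SE 0.61, adjusted p = 0.0585, limma), with 0% of 63 pairs called and 8 with an unadjusted p under 0.05. The adjusted p was 0.243 with all pairs kept, and 0.442 with the second spot alone, where the difference was -1.52. The tail value is between levels mostly at background, so its size is not a measured change. For T3 the difference between tissues was -0.88 (SE 0.65, adjusted p = 0.866, limma), with 0% of 69 pairs called and 2 at an unadjusted p under 0.05. The tissues were sampled at different times.

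**Figure D4:**
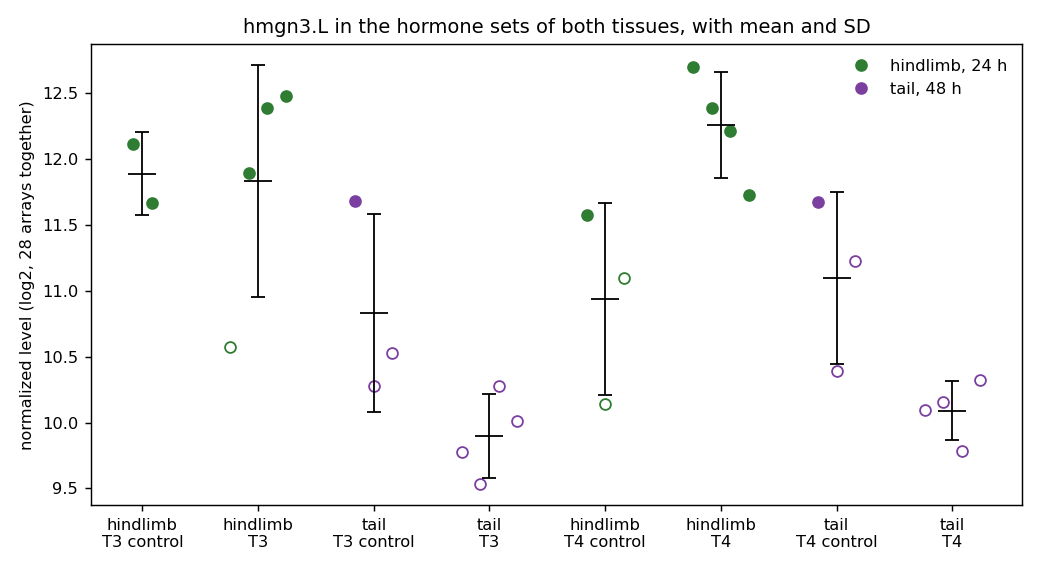
Normalised log2 level of hmgn3.L in the T3 and T4 sets of both tissues after joint normalisation, with hindlimb in green and tail in purple; open symbols are arrays not above background. T4-treated hindlimbs lie at 11.73 to 12.70 and T4-treated tails at 9.79 to 10.32.

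Other genes with the most similar pattern across the hindlimb arrays, taken as deviations from each set's mean, correlated only weakly with hmgn3.L. The 5 most alike of 54 named pairs (92 in all, median r 0.06) were pou2f1.S, an octamer-binding transcription factor, with r = 0.46 over 35 arrays, pcna.S, the replication clamp, with r = 0.40 over 36, nkx2-2.S, a homeodomain factor, with r = 0.40 over 36, mt4.L, a metallothionein, with r = 0.39 over 34, and tpm4.S with r = 0.36 over 35. Spearman's rho was 0.51, 0.51, 0.15, 0.39 and 0.32 in that order. Without the 2 arrays farthest from the median of hmgn3.L, r was 0.38, 0.28, 0.02, 0.33 and 0.14. The nkx2-2.S value thus rested on those arrays. The points share array brightness and scaling, and no p is given. They include the inhibitor-set arrays used in choosing the gene, so r is not independent of that choice. Among unnamed pairs, 3 had a higher r than pou2f1.S (0.59, 0.50 and 0.49), and pou2f1.S itself was above background on 6 hindlimb arrays. Without subtracting set means 3 of the 5 stayed among the 5 most alike, with r of 0.06 for mt4.L and 0.23 for nkx2-2.S, and with median centring 4 stayed, tuba1 taking the place of pcna.S.

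Of 42 HMG and chromatin genes sought, 4 had a named pair: hmgn3.L, sin3a.S (a corepressor scaffold), mbd3.S (a methyl-CpG-binding domain protein) and dnmt1.L (the maintenance DNA methyltransferase). sin3a.S was above background on 0 arrays and mbd3.S on 1. dnmt1.L was above it on 6 hindlimb arrays and 1 tail array, with a T3 difference of -0.16 in hindlimb and a tail-minus-hindlimb control difference of -0.38 (adjusted p = 0.303, limma). Under the filter and within a tissue, dnmt1.L was tested for a hormone effect only with T3 in hindlimb. For hmgn3.L this was T3 and T4 in hindlimb. Neither gene passed, and 0% of all pairs did (53 with T3, 44 with T4), so this says nothing particular of these genes. Of 32 thyroid hormone pathway genes sought, 7 had a named pair. In hindlimb 1 of them was tested with T3 and with T4, thdl17.L, whose differences were 0.58 and 0.03; in tail 3 were tested with T3 and 2 with T4. In these comparisons 0 passed, as did 0% of all pairs in each (53 and 44 in hindlimb, 52 and 58 in tail), so the count says nothing particular of the pathway. Between control tissues, thdl17.L (2.33, adjusted p = 0.00112, limma) and thdl18.S (2.06, adjusted p = 0.0243, limma), a pair of genes isolated for their hormone response in tail, were higher in tail, and the coactivator ncoa2.S was not called (0.72, adjusted p = 0.299, limma). Over all arrays, thdl17.L was above background on 17 of 38 in hindlimb and 26 of 26 in tail. For thdl18.S this was 5 and 25, so its difference is taken largely against hindlimb background.

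**Figure D5:**
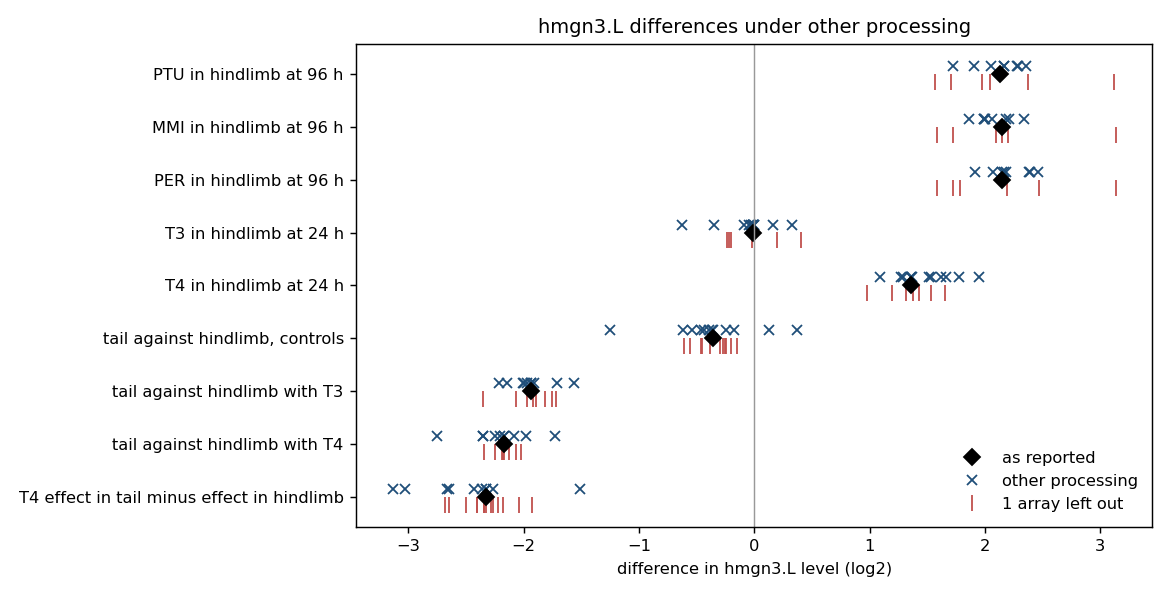
Log2 difference of hmgn3.L for selected comparisons under the reported processing and under each alternative. Those drawn are the inhibitors at 96 h, T3 and T4 in hindlimb, tail against hindlimb, and the T4 difference between tissues. Treatments in tail, inhibitors at 24 h, controls at 96 h against 24 h and the T3 difference between tissues are not drawn. The 96 h inhibitor differences remain above 1.5 in every alternative run, and the T4 difference in hindlimb lies between 0.98 and 1.95. Those 96 h differences were used in choosing the gene and share their controls, so their persistence is a description and not support.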

How the data were processed

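Intensities are as deposited by the authors: linear values with negatives from background subtraction, and in each of the 7 sets 1 array holding whole numbers only. No source used here names the scanner software, background method or scaling, so levels across sets are uncertain. Per the labels' protocols, amplified RNA from 1 animal was hybridised to each array with P32 label. Symbols were updated through gene IDs for 233 pairs. The noise SD was the scaled median size of an array's negative values.

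Intensities were corrected by normexp (offset 50), log2 transformed, quantile normalised within tissue and averaged over duplicate spots. limma 3.58.1 (lmFit, eBayes; R 4.3.3) was fitted with 1 coefficient per group over all arrays of a tissue, on pairs above 2 noise SD on at least 3 arrays of the compared groups, with Benjamini-Hochberg adjustment over those pairs. The scripts were tested on simulated data. Blank spots (0.739% to 12.4% per array) were left out. No 2 arrays were identical.

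The gene, the lists and the markers were chosen with earlier results of these data known. The rule for other named genes was the 5 with the highest Pearson r in hindlimb and the tested members of both lists. Tail likeness was not computed, because 2 tail arrays were above background. Alternatives changed scaling, offset, background, spot, filter, weights, replicate block and arrays. Precision is limited by 2 to 4 arrays per group.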

Additional observations from a re-analysis of the deposited data

Results flagged for a closer look

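The effect of T4 on hmgn3.L in hindlimb at 24 h and in tail at 48 h differed by -2.33 on the log2 scale (tail minus hindlimb, SE 0.61, adjusted p = 0.0585, or 0.243 with all pairs kept, limma), and it was listed because the effects had opposite signs in the tissues, -1.01 and 1.32. All 4 T4 hindlimbs lay above the matched control mean and 0 of 4 T4 tails did. The tail arrays with T4 were all at background, so the tail value rests on the controls, of which 1 of 3 was above background. Tissue and time cannot be told apart.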

How the results depend on the processing

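Precision was limited by faint arrays and by 2 to 4 arrays per group, and hmgn3.L rests on 1 pair of spots. T4 in hindlimb kept its direction in 19 of 19 alternatives and passed in 0, with differences from 0.98 to 1.95 (adjusted p from 0.111 to 0.785, limma). T3 in hindlimb was 0.16 with no normalisation, 0.33 with the second spot alone and -0.23 to 0.40 when 1 array was left out (0.19 without T3 control 1, 0.40 without T3 animal 1). Tail against hindlimb controls was 0.37 with centring on bright pairs, 0.13 with no normalisation and -1.25 with the T3 and T4 arrays added (adjusted p = 3.16e-05, limma), an alternative chosen after seeing the data; leaving out 1 array gave -0.61 to -0.15. The adjusted p with all pairs kept was 0.243 for the T4 difference between tissues. Tissue differences with T3 and T4 passed in 18 of 18 alternatives each, from -2.36 to -1.57 and from -2.75 to -1.72. All but the alternative with all pairs kept used the same filter, which hmgn3.L passed through hindlimb arrays alone. Both comparisons were added after the values had been seen, so these counts are not independent support. The T4 difference between tissues passed in 5 of 24 alternatives, being -2.64 with bright centring (adjusted p = 0.0179), -3.14 with the first spot alone (adjusted p = 0.0219) but -1.52 with the second (adjusted p = 0.442), and -2.68 to -1.93 when 1 array was left out, passing without hindlimb T4 control 1, hindlimb T4 animal 4 or tail T4 control 2. Scaling moved the median of the 44 pairs tested for T4 in hindlimb from -0.19 to 0.49. hmgn3.L minus that median was 1.52 with quantile scaling and 1.46 with the others. Median centring, bright centring and no scaling shift all pairs of an array alike, so their equal values were fixed in advance. In tail, T4 was -1.52 with the first spot and -0.52 with the second, and PTU was 0.78 with no normalisation. MMI in tail was 1.57 with no normalisation, 0.14 with a floor, 1.14 with the first spot and -0.025 with the second. PER in tail was 1.00 with the first spot, -0.66 with the second and -0.30 to 0.64 when 1 array was left out. Leaving out 1 array gave -1.16 to 1.41, 1.02 to 2.44 and 0.49 to 1.93 for PTU, MMI and PER at 24 h in hindlimb. The causes were not tested. With the replicate number as a block, T3 in hindlimb was -0.63 (adjusted p = 0.984), T4 in hindlimb 1.54 (adjusted p = 0.404) and the T4 difference between tissues -2.33 (adjusted p = 0.0897); deviations of same-numbered arrays correlated between -0.534 and 0.502, in no comparison all above 0.1, so the numbers were not treated as pairs.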
